A study of Mus musculus with 24 samples.

Results

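The genes described here move calcium out of and back into the sarcoplasmic reticulum of skeletal muscle, together with *Fkbp1a*. They are *Ryr1*, *Cacna1s*, *Atp2a1*, *Atp2a2*, *Casq1*, *Casq2*, *Sln*, *Pln*, *Pvalb* and *Fkbp1a*. The 10 genes were selected on Hypox and Norm values known from an earlier analysis of the same arrays, and every non-control probe carrying one of these gene names was taken. This gave 15 of the 55681 probes on the array. Since the measured difference between Hypox and Norm had a part in the selection, the differences of the 10 genes are a description and carry no P-value. The samples were *M. gastrocnemius*, a calf muscle of mixed fiber types, from male C57BL/6JOlaHsd mice that arrived at 10 weeks of age, ate a low-fat diet (10% of energy from fat) for 3 weeks and then a high-fat diet (40% of energy from fat) for 6 weeks. All mice were fasted, and 12 stayed at 20.9% oxygen (Norm) while 12 were kept at 12% oxygen (Hypox), in both cases for 6 h. Each array compared the RNA of 1 mouse (Cy5 dye) with a reference pool of all samples (Cy3 dye), so that every value is a log2 ratio to that pool. RNA of the ground muscle was measured, and fewer fibers of a type cannot be told apart from less RNA per fiber.

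In a skeletal muscle fiber, the voltage-sensing channel of the T-tubule (*Cacna1s*) opens the ryanodine receptor of the sarcoplasmic reticulum (*Ryr1*), and calcium leaves the store to start contraction. FKBP12, the product of *Fkbp1a*, is a small prolyl isomerase that binds the ryanodine receptor and is known to stabilize its closed state. Calsequestrin holds calcium inside the store, in a fast fiber form (*Casq1*) and a cardiac and slow fiber form (*Casq2*). The SERCA pumps return calcium to the store, *Atp2a1* in fast and *Atp2a2* in slow fibers, and the small membrane proteins sarcolipin (*Sln*) and phospholamban (*Pln*) restrain them. Parvalbumin (*Pvalb*) binds calcium in the cytosol of fast fibers and speeds relaxation.

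Every one of the 6 slides carried 4 arrays, 2 of either group. Brightness varied widely, from a mean Cy5 signal of 58.3 to 102 on slide 1, the dimmest, to 645 to 1014 on slide 6, the brightest. All 5 skeletal muscle markers examined (*Ckm*, *Acta1*, *Myh4*, *Mb* and *Tnnt3*) passed the filter on dim probes. A few arrays stood apart. Norm replicate 5 had a mean log2 ratio of -2.14 over 7 slow fiber genes, against -0.83 in the next lowest Norm array, with -2.90 for *Myh7*. Cardiac troponin I (*Tnni3*) was at 5.57 in Norm replicate 1 alone, and the lung marker *Sftpc* was at 2.58 in Hypox replicate 8. The other 4 of 5 lung markers (*Sftpa1*, *Sftpb*, *Sftpd* and *Scgb1a1*) did not pass the filter. Markers of other cell types that differed at the unadjusted limma threshold, none of them after adjustment, included *Sftpc* (0.81), *Cdh5* of endothelium (0.38) and *Tnnt2* of heart (0.18) higher in Hypox and *Pmp22* of nerve (-0.41) and *Adipoq* of fat (-0.33) lower. Their lists were not all of 1 direction. Of the tested endothelium markers 1 was higher and 1 lower, and of the heart markers 1 was higher and 2 lower. The lower heart marker *Tnni3* (-0.48) was well above background on only 1 array, and its Norm mean includes the 5.57 of Norm replicate 1. *Sftpc* was well above background on only 4 arrays. No direction is read from these 2 genes. All 4 nerve markers and all 3 fat markers tested were lower. The part of such cells in the values of the calcium genes was not tested. Values without Norm replicate 5 are given where they matter.

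*Fkbp1a* was measured by 3 probes that read different places of the gene, all on the plus strand of mm9. The first 30 of the 60 bases of each are shown because their mean differences between Hypox and Norm were not alike. The capitals mark the ATG triplet of probe 1, which follows a run of GCC repeats. Probe 1 lies at chr2:151368420-151368479 (from base 185 of the transcript it was designed on), probe 3 at chr2:151369677-151369736 (from base 120 of another transcript) and probe 2 at chr2:151387365-151387424 (from base 1578 of the same transcript as probe 1).
*Fkbp1a* probe 1: aacgccgccgccgccgccgccgccATGgga
*Fkbp1a* probe 3: ggaagggaagacaagacagcccgctcacat
*Fkbp1a* probe 2: gcactacatatgcggttcaagttttattat

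*Fkbp1a* probe 1 was lower in Hypox on every slide. In Norm its log2 ratio ran from -0.11 to 0.69 with a median of 0.21. In Hypox it ran from -0.52 to 0.56 with a median of -0.34. The highest Hypox value belonged to replicate 4 on slide 1, and 11 of 12 Hypox arrays lay under the Norm median. The Norm mean was 0.28 ± 0.31 and the Hypox mean -0.25 ± 0.31 (SD, 12 arrays per group), a difference of -0.53 ± 0.12 (SE), or 0.691-fold. Both Hypox arrays lay under both Norm arrays on 6 of 6 slides, and the slide differences ran from -0.73 to -0.30. Among the 14503 probes past the filter this was difference 197 counted from the most negative.

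The other *Fkbp1a* probes gave smaller differences, and the difference between probes was not tested. Probe 2 averaged 0.30 ± 0.42 in Norm and 0.28 ± 0.47 in Hypox, a difference of -0.03 ± 0.17 (SE), and was lower in Hypox on 4 of 6 slides. Probe 3 averaged 0.31 ± 0.40 in Norm and 0.13 ± 0.33 in Hypox, a difference of -0.18 ± 0.14 (SE), and was lower in Hypox on 5 of 6 slides. For both, the Norm and Hypox ranges overlapped almost in full. Across arrays, with group means removed, the correlation of probe 1 with probe 2 was -0.24 (rho = -0.11, permutation P-value = 0.25, adjusted 0.30) and with probe 3 it was 0.25 (rho = 0.16, permutation P-value = 0.25, adjusted 0.30), neither past the threshold. Without the 2 arrays farthest from the median these correlations were -0.10 and -0.0030, and with slide means removed -0.49 and 0.41. The means of probes 1 and 3 were lower in Hypox. The difference of probe 2 was smaller than its SE and had no steady sign, from -0.15 to 0.08 as 1 array at a time was left out.

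The base composition of the 3 probes differed. Probe 1 is 71.7% G and C, at percentile 99.5 of all probes past the filter, whereas probe 3 is 55% and probe 2 is 35%. Over all probes past the filter the median difference between Hypox and Norm was 0.02, while the 209 probes with over 60% G and C had a median of -0.09 and 75.6% of them were lower in Hypox. Within 2 percentage points of probe 1's composition there were 42 probes, with a median difference of -0.11. *Fkbp1a* probe 1 was second from the lowest among them. The mean log2 ratio of the 208 other probes over 60% G and C had a Norm average of 0.05 ± 0.11 and a Hypox average of -0.06 ± 0.13 (SD). With group means removed it followed *Fkbp1a* probe 1 across the 24 arrays (r = 0.75, P-value = 4e-05, rho = 0.74, P-value = 8e-05, 2-sided permutation tests with 100000 shuffles, the only such relation computed and chosen after the values were seen). Without the 2 farthest arrays r was 0.65, and with slide means removed it was 0.63. With this mean as a covariate the difference of *Fkbp1a* probe 1 was -0.32 ± 0.09 (SE). In the deposited normalized values it was -0.10, and after median centring of each array it was 0.06, where the median difference of all probes moved to 0.24.

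**Figure D1:**
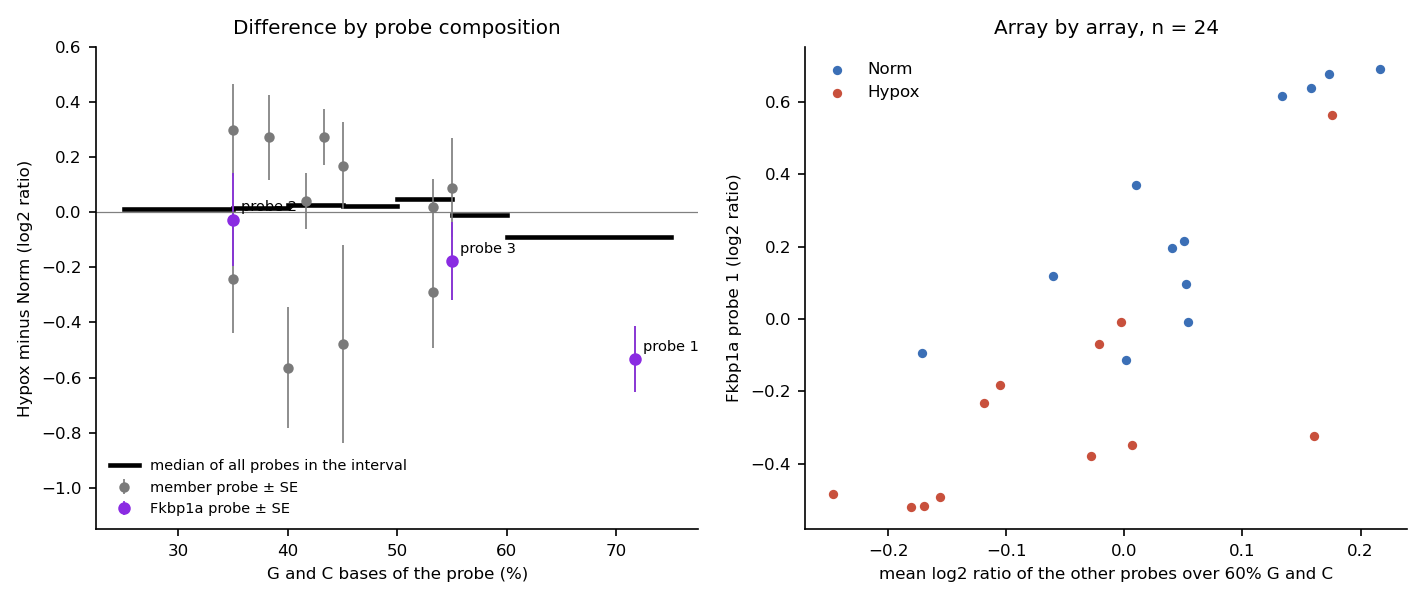
Left, difference between Hypox and Norm (log2 ratio, with SE) against the share of G and C bases for the 14 member probes past the filter, with the 3 *Fkbp1a* probes in purple and bars for the median of all probes in each interval (the outermost bars end at the plot edge). Right, *Fkbp1a* probe 1 against the mean of the 208 other probes over 60% G and C on the 24 arrays. Probe 1 sits at 71.7% and -0.53, and both groups of arrays slope upward.

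The release channel itself was measured by 1 probe and was lower in Hypox. *Ryr1* (chr7:29788789-29789487 on the minus strand, a probe that spans 699 bases of the genome) ran from -0.49 to 1.51 with a median of -0.26 in Norm and from -1.46 to 0.52 with a median of -0.51 in Hypox. The groups overlapped, although 6 of 12 Hypox arrays lay under all Norm arrays. The mean was 0.05 ± 0.62 in Norm and -0.52 ± 0.54 in Hypox (SD), and the difference was -0.56 ± 0.22 (SE). All 6 slides had a lower Hypox mean, by 0.05 at the least and 1.12 at the most, the last on slide 1. Without slide 1 the difference was -0.45. Under median centring it was 0.06, beside a median of 0.24 for all probes.

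*Cacna1s*, the T-tubule voltage sensor, had 2 probes that did not move together. Probe 1 (chr1:138016020-138016079) lay between -0.03 and 1.97 in Norm, median 0.41, and between -0.16 and 1.34 in Hypox, median 0.21. Its difference was -0.29 ± 0.20 (SE), negative on 5 of 6 slides, and -0.16 without Norm replicate 4. Probe 2 (chr1:138015618-138015677) averaged -0.60 ± 0.24 in Norm and -0.58 ± 0.27 in Hypox (SD), a difference of 0.02 ± 0.10 (SE). The correlation of the probes over the arrays, with group means removed, was 0.18 (rho = 0.31, permutation P-value = 0.39, adjusted 0.39), 0.20 without the 2 farthest arrays and 0.49 with slide means removed. Slides accounted for 87.0% of the variance of probe 1 within groups, and its values on slide 1 (0.98 to 1.97) lay above those on all other slides (-0.16 to 0.92).

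**Figure D2:**
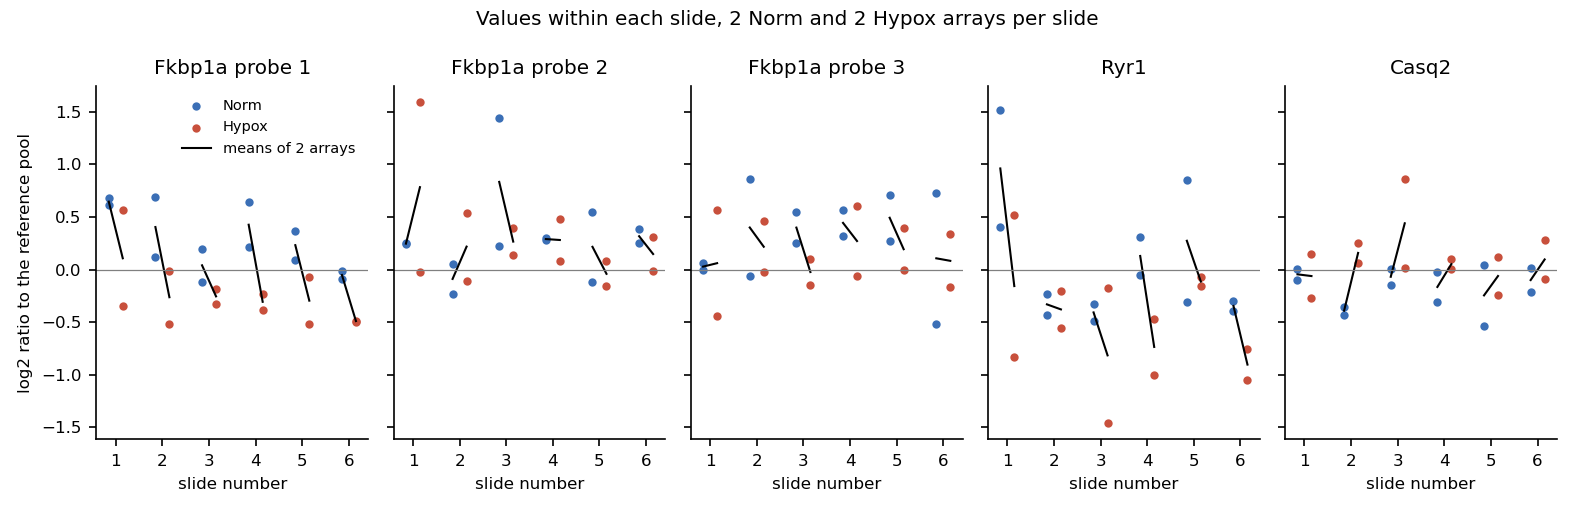
Log2 ratio to the reference pool (y axis) on each of the 6 slides (x axis) for the 3 *Fkbp1a* probes, *Ryr1* and *Casq2*, with 2 Norm (blue) and 2 Hypox (red) arrays per slide and a line joining the 2 means. With loess every line of *Fkbp1a* probe 1 falls (under median centring its overall difference was 0.06, beside a median of 0.24 for all probes). For probe 2 the lines go both ways (lower in Hypox on 4 of 6 slides), and for *Casq2* the Hypox mean is higher on 5 of 6 slides.

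The store proteins were both higher in Hypox on average, *Casq2* with less overlap. *Casq2* (chr3:101949827-101949884) lay between -0.53 and 0.04 in Norm, median -0.12, and between -0.27 and 0.86 in Hypox, median 0.08, and 7 of 12 Hypox arrays lay above all Norm arrays. Its mean was -0.17 ± 0.20 in Norm and 0.10 ± 0.29 in Hypox (SD), a difference of 0.27 ± 0.10 (SE), and 0.24 without Norm replicate 5. The probe was dim, at 3.63 times the background, and was well above background on 8 Norm and 10 Hypox arrays. *Casq1* (chr1:174140602-174142105, a span of 1504 bases) lay between -1.08 and 0.01 in Norm, median -0.36, and between -1.39 and 0.78 in Hypox, median -0.25. Its difference was 0.17 ± 0.16 (SE), with 0.82 on slide 3 and 0.07 without Hypox replicate 2. With a positive difference on 4 of 6 slides and groups that overlapped nearly in full, *Casq1* differed by less than the spread between arrays.

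The mean differences of the pumps were positive and small beside the spread between arrays. *Atp2a1* (chr7:133591703-133591762), the fast fiber pump, averaged -0.84 ± 0.47 in Norm and -0.76 ± 0.47 in Hypox (SD), and the difference of 0.09 ± 0.18 (SE) was positive on 3 of 6 slides. It was 0.0080 without Norm replicate 9 and 0.16 without Hypox replicate 2. Probe 1 of the slow fiber pump *Atp2a2* (chr5:122903704-122903763) lay between -1.68 and 0.79 in Norm, median -0.41, and between -0.46 and 0.29 in Hypox, median -0.15. Here 11 of 12 Hypox arrays lay above the Norm median, while the lowest and the highest of all 24 values were both Norm arrays, replicates 5 and 12. The difference was 0.30 ± 0.17 (SE), positive on 5 of 6 slides. Without Norm replicate 5 it was 0.18, and without Norm replicate 12 it was 0.41. *Atp2a2* probe 2, at 2.04 times the background and well above it on 10 of 24 arrays, gave 0.04 ± 0.10 (SE).

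Of the 2 pump inhibitors, only sarcolipin was measured above the filter. *Sln* (chr9:53701574-53701633) lay between -0.99 and 0.91 in Norm, median -0.25, and between -0.50 and 0.73 in Hypox, median 0.02, a difference of 0.27 ± 0.15 (SE). The slides disagreed, with 1.20 on slide 5 and -0.51 on slide 2, and without Norm replicate 5 the difference was 0.20. The only *Pln* probe (chr10:53064944-53065003) was at 1.15 times the background and not well above background on any of the 24 arrays. Its log2 ratios lay between -0.46 and 0.35 and are not compared here.

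*Pvalb* had the widest spread of the 10 genes. Probe 1 (chr15:78021951-78022010) lay between -0.18 and 3.53 in Norm, median 0.75, and between 0.22 and 3.03 in Hypox, median 0.61. Its SD within groups of 0.96 stood at percentile 98.8 of the probes past the filter. The difference was -0.48 ± 0.36 (SE) for probe 1 and -0.24 ± 0.20 (SE) for probe 2, negative on 4 and 5 of 6 slides, and without Norm replicate 4 they were -0.27 and -0.14. Much of this spread lay between slides, which accounted for 78.5% of the variance of probe 1 within groups. On slide 1 probe 1 stood between 1.24 and 3.53, and on the other slides between -0.18 and 1.69. The probes followed each other over the 24 arrays (r = 0.89, rho = 0.72, permutation P-value = 1e-05, the smallest that 100000 shuffles can give, adjusted over 6 probe pairs 6e-05). Without the 2 farthest arrays r was 0.81, and with slide means removed 0.39.

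**Figure D3:**
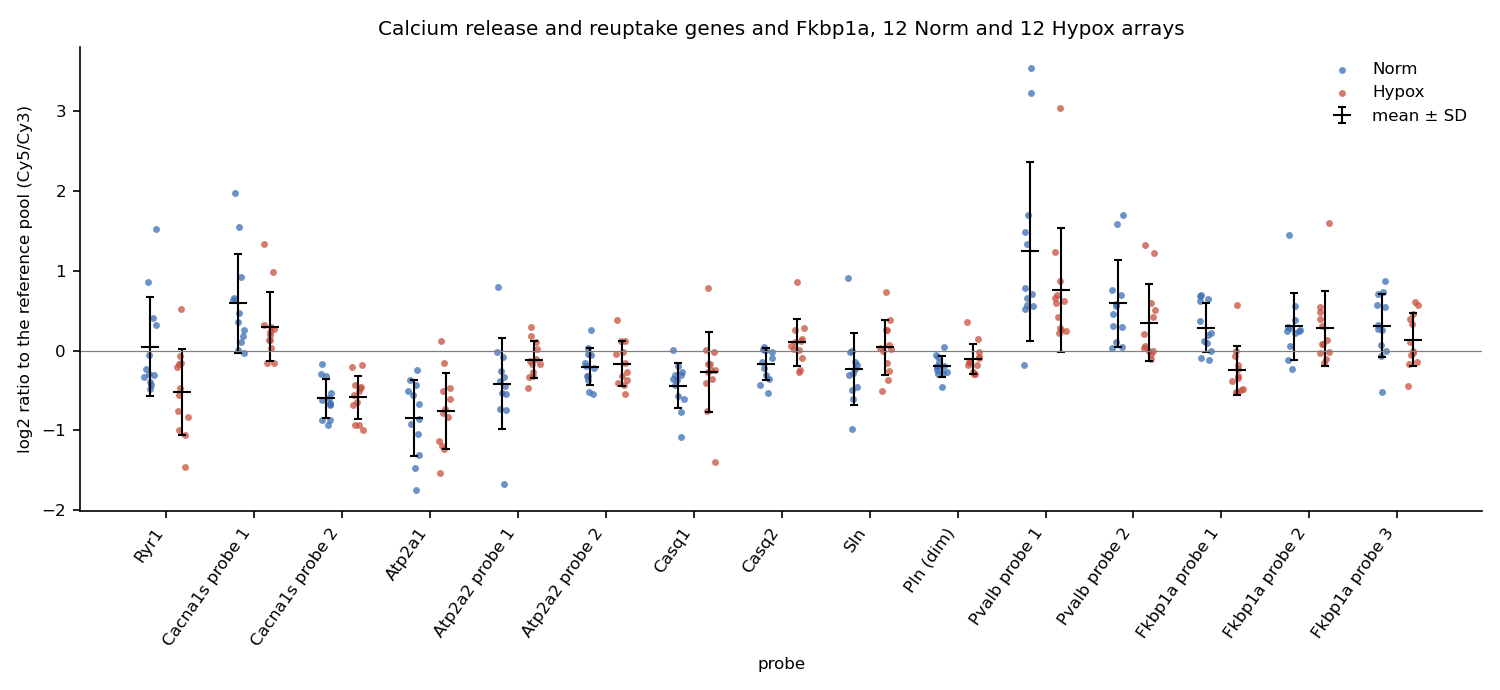
Log2 ratio to the reference pool (y axis) of the 15 probes (x axis) on 12 Norm (blue) and 12 Hypox (red) arrays, with the mean and SD of each group in black. *Fkbp1a* probe 1 (mean 0.28 in Norm, -0.25 in Hypox) and *Ryr1* (0.05 and -0.52) sit lower in Hypox with loess. Under median centring their differences were 0.06 each, beside a median of 0.24 for all probes. The *Pvalb* probes and *Cacna1s* probe 1 reach highest on arrays of slide 1.

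Over the 14 member probes past the filter, 7 were higher and 7 lower in Hypox, with a median difference of -0.0043 against 0.02 for all 14503 probes. At the unadjusted threshold of 0.05 used by the study, limma's moderated test called 3 of the 14, beside 13.8% of all probes. The calls were *Ryr1* and *Fkbp1a* probe 1, lower, beside 6.41% of all probes called lower, and *Casq2*, higher, beside 7.41%. After Benjamini-Hochberg adjustment over all probes 1 of 14 was called, *Fkbp1a* probe 1, beside 0.931% of all probes, and this call was lost when Norm array 1, 2 or 5, or else Hypox array 7, 8, 10 or 11, was left out. The directions rest on the scaling, since 4 of 14 were lower in the deposited values and 0 of 14 under median centring. With the slide as a block 6 of 14 were called at the unadjusted threshold, beside 15.7% of all probes, with both *Pvalb* probes and *Cacna1s* probe 1, all lower, joining the former 3. Nothing is read from these counts, because the same contrast had a part in the choice of the genes.

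The rest of the calcium machinery was listed by role and fitted in the same way. These lists, and those of the FKBP family and fiber types, were chosen with earlier results of these arrays known. Their P-values and calls are therefore a description. Of 63 further genes of the triad, calcium binding, entry, extrusion, mitochondrial uptake and calcium signaling, 62 were on the array and 49 were tested, each by its brightest probe. Of these, 21 were higher and 28 lower in Hypox, with a median of -0.03 against 0.03 for all 9223 genes. The split turned with the scaling, to 38 higher and 11 lower in the deposited values and 48 higher and 1 lower under median centring. limma called 1 gene higher and 5 lower at an unadjusted P-value under 0.05 (12.2% of the 49), beside 11.9% of all genes (7.03% higher and 4.92% lower). After adjustment 0 of the 49 were called, beside 0.575% of all genes.

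In the triad, the junction of T-tubule and store, 3 of 18 tested genes passed the unadjusted threshold (16.7%, beside 11.9% of all genes). *Trdn*, which encodes triadin and ties calsequestrin to the ryanodine receptor, averaged 0.67 ± 0.29 in Norm and 0.28 ± 0.38 in Hypox (SD), and fell by 0.39 ± 0.14 (SE, limma P-value = 0.0099, adjusted 0.20), lower on 6 of 6 slides. Its 2 dimmer probes gave -0.23 and -0.10. *Cacna2d1*, the auxiliary subunit of the voltage sensor, fell by 0.37 ± 0.12 (SE, limma P-value = 0.0054, adjusted 0.16), but its second probe gave 0.24 ± 0.19, so that its call rests on the brighter probe. *Cav3*, the caveolin of muscle membranes, rose by 0.38 ± 0.18 (SE, limma P-value = 0.041, adjusted 0.33), and 0.24 without Hypox replicate 2, where it no longer passed. Genes that build the junction without passing the threshold were *Jph1* (0.00 ± 0.09), *Jph2* (-0.03 ± 0.14), *Stac3* (-0.02 ± 0.21), which couples the voltage sensor to the receptor, and *Jsrp1* (-0.28 ± 0.18).

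Outside the triad, 3 genes passed the unadjusted threshold, all lower in Hypox. They were 1 of 4 tested genes of entry and 2 of 12 of signaling (25% and 16.7%, beside 4.92% of all genes called lower). The store sensor *Stim1*, which opens the entry channel when the store empties, fell by 0.19 ± 0.08 (SE, limma P-value = 0.030, adjusted 0.30), and its other probe gave -0.15 ± 0.10. The call was lost in 5 of 24 fits that left out 1 array, namely Norm array 1, 2 or 5, or else Hypox array 8 or 10. Its channel partner *Orai1* gave 0.04 ± 0.08. Of the kinases that read calcium through calmodulin, *Camk2b* fell by 0.23 ± 0.08 (SE, limma P-value = 0.0087, adjusted 0.19), and its other probe gave -0.18. The transcription factor *Nfatc1*, which calcineurin dephosphorylates and which slow fibers use, fell by 0.26 ± 0.10 (SE, limma P-value = 0.016, adjusted 0.24), while its other probe gave -0.06. None of the 4 calcineurin-side genes *Ppp3ca* (-0.01 ± 0.10), *Ppp3cb* (0.02 ± 0.12), *Ppp3r1* (0.03 ± 0.12) and *Rcan1* (0.02 ± 0.11) passed. For *Trdn*, *Stim1* and *Camk2b* the deposited values gave 0.08, 0.09 and 0.03, and median centring 0.49, 0.25 and 0.21 beside the 0.24 of all probes.

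Buffers, exporters and mitochondrial uptake held no call. Of 6 tested calcium-binding genes 0 passed (beside 11.9% of all genes), and *S100a1*, which binds calcium and the ryanodine receptor, gave 0.12 ± 0.18 (SE). Among 3 exporters they ran from -0.17 (*Atp2b1*, a plasma membrane pump) to 0.18, and among 5 genes of mitochondrial uptake from -0.09 (*Letm1*) to 0.27 (*Mcur1*). The mitochondrial uniporter *Mcu* did not pass the filter. *Mrln*, which encodes the pump inhibitor myoregulin, gave -0.06 ± 0.19 (SE).

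**Figure D4:**
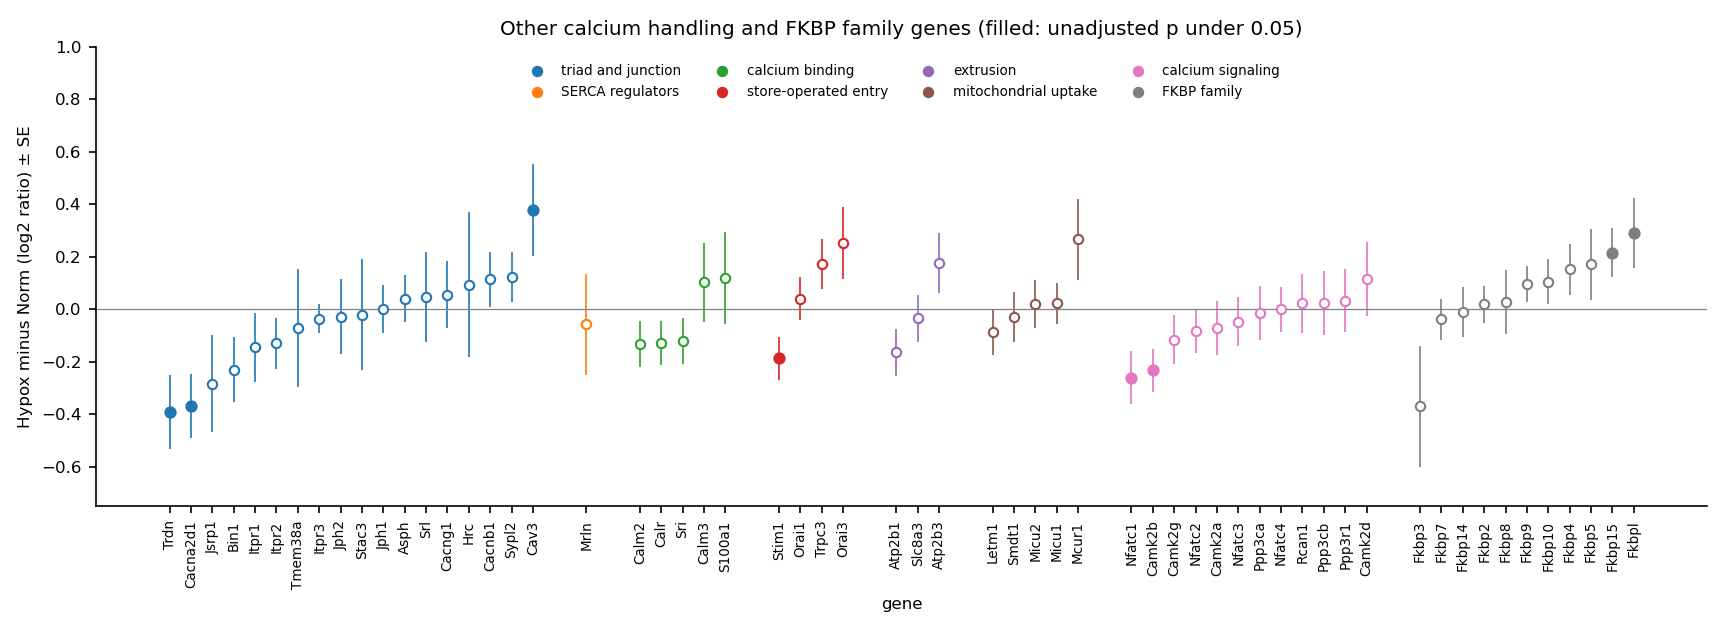
Difference between Hypox and Norm (log2 ratio, with SE) for 48 of the 49 other calcium handling genes and the 11 FKBP family genes tested, in list order, filled where the unadjusted P-value was under 0.05. Filled points lie below 0 for *Trdn*, *Cacna2d1*, *Stim1*, *Nfatc1* and *Camk2b* and above 0 for *Cav3*, *Fkbpl* and *Fkbp15*. Those of *Trdn*, *Cacna2d1*, *Stim1* and *Camk2b* were above 0 under median centring, where the median of all probes was 0.24.

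Most relatives of *Fkbp1a* had small positive differences. Of 14 FKBP family genes on the array 11 were tested, 8 higher and 3 lower in Hypox (6 and 5 with scanner-processed signals, 11 and 0 under median centring), with a median of 0.10. Of these 11, 2 passed the unadjusted threshold (18.2%, beside 11.9% of all genes), both higher (beside 7.03% of all genes), *Fkbpl* with 0.29 ± 0.13 (SE, limma P-value = 0.040, adjusted 0.33, and 0.19 without Hypox replicate 2, where it no longer passed) and *Fkbp15* with 0.22 ± 0.09 (SE, limma P-value = 0.028, adjusted 0.29). *Fkbp1b*, whose product binds ryanodine receptors in the heart, was at 1.40 times the background and did not pass the filter. *Fkbp5*, a cochaperone of steroid receptors, gave 0.17 ± 0.13 and *Fkbp3* -0.37 ± 0.23 (SE).

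Genes of slow fibers, where *Atp2a2*, *Casq2* and *Sln* are known to be used, were higher in Hypox on average, in part through 1 array. All 7 had positive differences, with a median of 0.38, and all 7 were positive with scanner-processed signals and Cy5 alone too. They were also positive under median centring and in the deposited values, but so were all 9 fast fiber genes. The sign alone does not set slow fiber genes apart there. Their medians were 0.85 and 0.68, beside 0.54 and 0.37 for fast fiber genes and 0.24 and 0.07 for all probes. With loess but without Norm replicate 5, however, 5 of 7 were positive and the median was 0.17, with *Myl3* at -0.06 and *Tpm3* at -0.04. Of the 7, *Tnni1* (0.61 ± 0.17, SE, limma P-value = 0.0011, adjusted 0.074) and *Tnnc1* (0.44 ± 0.18, SE, limma P-value = 0.024, adjusted 0.28), a troponin I and a troponin C of slow fibers, passed the unadjusted threshold (28.6%, beside 7.03% of all genes called higher). Without Norm replicate 5 they were at 0.51 and 0.31 and still passed. The mean log2 ratio of the 7 genes was -0.38 ± 0.69 in Norm against -0.04 ± 0.16 in Hypox (SD), a difference of 0.34, and 0.18 without Norm replicate 5. Of 9 fast fiber genes 8 were lower with loess, with a median of -0.26, and none of the 8 passed. This direction turned with the scaling, since 5 of 9 were lower with scanner-processed signals, 4 with Cy5 alone and 0 in the deposited values and under median centring. The remaining one, *Mylpf*, a fast myosin light chain, rose by 0.36 ± 0.10 (SE, limma P-value = 0.00098, adjusted 0.071). Its probe was much the dimmest of the 9, at 16.6 times the background, against 423 to 3892 times for the other 8. The part of fiber makeup in the differences of the calcium genes was not tested.

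Correlations over the 24 arrays with group means removed are independent of the contrast and were tested for 9 genes, each by its brightest probe past the filter. For members with several probes this was probe 1, so results for *Fkbp1a* are those of its probe 1 alone. Of 18 correlations with the means of the slow and fast fiber genes, 6 held after adjustment (2-sided permutation, 100000 shuffles within groups). *Pvalb* followed the fast fiber mean most closely (r = 0.99, rho = 0.92, permutation P-value = 1e-05, adjusted 9e-05), then *Cacna1s* (r = 0.94, rho = 0.89, permutation P-value = 1e-05, adjusted 9e-05), *Fkbp1a* (r = 0.75, rho = 0.64, permutation P-value = 0.00022, adjusted 0.0013), *Ryr1* (r = 0.73, rho = 0.61, permutation P-value = 0.00039, adjusted 0.0018) and *Atp2a1* (r = 0.57, rho = 0.58, permutation P-value = 0.0037, adjusted 0.011). Without the 2 farthest arrays r was 0.97, 0.87, 0.80, 0.45 and 0.44 in that order. With slide means removed r was 0.95, 0.70, 0.63, 0.69 and 0.33. Arrays were then shuffled only between the 2 of a group on a slide. This holds the mean of each such pair fixed, so these P-values do not track the size of r. By this test only *Pvalb* of these held after adjustment (adjusted permutation P-value = 0.023). *Casq1* had r = 0.78 with the fast fiber mean and did not hold (adjusted permutation P-value = 0.095). *Sln* ran against the fast fiber mean by the same test (r = -0.44, adjusted permutation P-value = 0.0041), where r without removing slide means was -0.19.

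The fast fiber mean was itself close to a general measure of bright probes. A mean of the 100 brightest other probes, chosen after the values were seen, followed it with r = 0.98, and followed *Pvalb* with r = 0.99 and *Fkbp1a* with r = 0.76. Once this mean was removed by regression, the correlation with the fast fiber mean was 0.59 for *Pvalb*, 0.29 for *Ryr1*, 0.17 for *Atp2a1*, 0.03 for *Fkbp1a* and -0.13 for *Cacna1s*. For *Casq1*, *Sln*, *Atp2a2* and *Casq2* it moved away from 0, from 0.06, -0.19, -0.29 and 0.11 to 0.69, -0.66, -0.38 and 0.23. The correlations after this removal were not tested. *Atp2a2* was the one gene whose correlation with the slow fiber mean held after adjustment (r = 0.77, rho = 0.39, permutation P-value = 0.0024, adjusted 0.0088). It rested on few arrays. Without Norm replicate 5 it was 0.55 (adjusted permutation P-value = 0.065). Without the 2 farthest arrays r was 0.23, within Norm 0.86 and within Hypox -0.12.

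**Figure D5:**
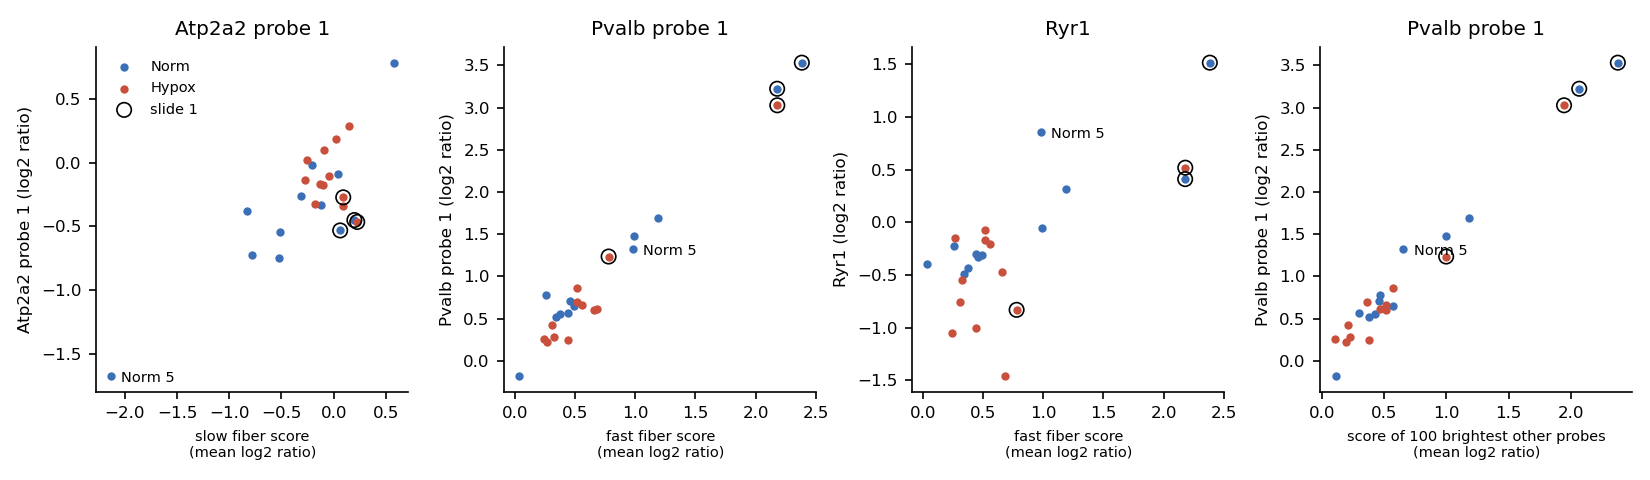
Log2 ratio of *Atp2a2* probe 1, *Pvalb* probe 1 and *Ryr1* (y axes) against the mean log2 ratio of the slow fiber genes, the fast fiber genes or the 100 brightest other probes (x axes) on the 24 arrays, with slide 1 circled and Norm replicate 5 named. *Atp2a2* is drawn out by Norm replicate 5 at a slow fiber mean of -2.14, and the *Pvalb* plots against fast fiber genes and against bright probes look alike (r = 0.99 in both).

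Of 36 correlations between the 9 genes, 10 held after adjustment, all positive, and they joined *Ryr1*, *Cacna1s*, *Atp2a1*, *Pvalb* and *Fkbp1a* to one another. Here too *Fkbp1a* stands for its probe 1. The closest were *Cacna1s* with *Pvalb* (r = 0.93, rho = 0.82, permutation P-value = 1e-05, adjusted 0.00036) and *Pvalb* with *Fkbp1a* (r = 0.78, rho = 0.76, permutation P-value = 3e-05, adjusted 0.00054), at 0.87 and 0.64 without the 2 farthest arrays. With slide means removed, and shuffles again only between the 2 arrays of a group on a slide, 3 held. They were *Ryr1* with *Pvalb* (r = 0.71, adjusted permutation P-value = 0.0083), *Ryr1* with *Fkbp1a* (r = 0.55, adjusted permutation P-value = 0.032) and *Pvalb* with *Fkbp1a* (r = 0.71, adjusted permutation P-value = 0.032). With the bright probe mean removed these 3 were at 0.42, 0.31 and 0.31. The pair *Atp2a1* with *Fkbp1a* (r = 0.52, adjusted permutation P-value = 0.043) held in 9 of 24 fits that left out 1 array, and was at 0.37 without Hypox replicate 4. None of the pairs with *Atp2a2*, *Casq1*, *Casq2* or *Sln* held. Between sarcolipin and the pumps it restrains, *Sln* with *Atp2a1* gave r = -0.26 (adjusted permutation P-value = 0.47) and with *Atp2a2* r = 0.26 (adjusted permutation P-value = 0.50).

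The genes with the most similar group-centred values over the 24 arrays, by Pearson's r, are given for *Fkbp1a*, *Atp2a2*, *Pvalb* and *Sln* and not for the other members. For *Fkbp1a* probe 1 they were *ND2*, *CYTB* and *ND4L* (r = 0.87, 0.87 and 0.85), all encoded by the mitochondrial genome. This probe also followed the mean of the other probes over 60% G and C (r = 0.75) and the bright probe mean (r = 0.76). Its correlations with *Fkbp1a* probes 2 and 3 were -0.24 and 0.25. *Atp2a2* was nearest to *Tpm3*, a slow fiber tropomyosin in the slow fiber list, *Tax1bp3* and *Myh7b* (r = 0.87, 0.86 and 0.84). *Pvalb* was nearest to *Pfkm*, the muscle phosphofructokinase, *Gm5523* and the fast myosin *Myh4* (r = 0.97, 0.97 and 0.96). *Sln* was nearest to *Wfdc17*, *Gpx8* and *Chchd1* (r = 0.83, 0.76 and 0.72). With slide means removed these 12 correlations lay between 0.72 and 0.92.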

How the data were processed

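The authors deposited the intensity of every spot of 24 2-colour arrays, as mean signal and local background in Cy5 and Cy3, as written by Agilent Feature Extraction 10.7.3.1 without normalization between arrays, with probe positions on mm9. They also deposited log2 normalized expression values for 21335 spots, made in GeneMaths XT, whose use of the Cy3 channel and scaling are not given in the sources used here (median 6.58 in each column). The ratio was taken as Cy5 over Cy3, as the descriptions state, although label fields of some Hypox arrays name the dyes otherwise. Here, 7260 flagged readings were left out, the background was corrected by normexp (offset 50), log2 ratios were normalized by loess within arrays, and repeat spots were averaged by probe. Of 55681 probes 14503 were kept, those whose Cy5 signal averaged above 2 times its local background and that lacked a value on no more than 4 arrays. The number of arrays and their dimness limit the precision, since 9.42% to 37.8% of an array's spots were well above background. limma 3.58.1 in R 4.3.3 tested Hypox against Norm without a block. The limma P-values rest on the spread between arrays, 1 per mouse, which holds differences between slides as well as between mice. Slides accounted for 11.5% (*Sln*) to 87.0% (*Cacna1s*) of the variance within groups. Genes were named through RefSeq accessions and symbols, and the brightest probe stood for a gene. Member probes are all named. Other genes are those past the unadjusted threshold and up to 4 per list with a described role. The members and lists were chosen with earlier results of these data known. Permutation tests used 100000 shuffles, and 10000 where an array was left out. With slide means removed they shuffled only the 2 arrays of a group within a slide. The limma fits and the t-test were checked on simulated data with independent noise and no slide, brightness or composition effects. The permutation tests were not checked in this way. Alternatives were other normalizations, the deposited values, slide or replicate number as a block, array weights, filters, the methods' t-test and leaving out arrays. A few listed genes are not reported here by name.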

Additional observations from a re-analysis of the deposited data

How the results depend on the processing

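Normalization moved the values most. Median centring of each array shifted the median difference of all probes to 0.24. It called 59 probes (2005 with loess) and 0 after adjustment (135 with loess), 0 of the 14 member probes, 0 of the 49 other calcium genes and 0 of the 27 FKBP and fiber genes, left 0 of 14 member probes lower, and turned *Ryr1* to 0.061, *Fkbp1a* probe 1 to 0.059, *Trdn* to 0.49, *Cacna2d1* to 0.058, *Stim1* to 0.25 and *Camk2b* to 0.21, while all 18 score correlations and all 36 pairs then held. The deposited values gave 914 probes, 1 after adjustment, 1 member probe, 0 after adjustment, 4 of 14 lower, 1 other calcium gene, 3 of the 27, 14 score correlations and 21 pairs, with *Trdn* at 0.075, *Stim1* at 0.091 and *Camk2b* at 0.030. The methods' t-test called 85 probes after adjustment and 0 members, and on the deposited values 951 probes, 0 after adjustment, 1 member, 0 after adjustment, and 2 other calcium genes, with the same 3 signs turned (0.075, 0.091 and 0.030). Cy5 alone gave 1333 probes, 61 after adjustment, 0 members after adjustment and 1 pair, and turned *Cacna1s* and *Atp2a1* against the fast fiber mean to -0.24 and -0.015 and against *Pvalb* to -0.39 and -0.11. Scanner-processed signals gave 212 probes after adjustment and 3 pairs, with *Ryr1* and *Pvalb* at -0.11. No filter gave 4487 probes, 45 after adjustment and 0 members after adjustment. Array weights gave 672 probes after adjustment, 5 member probes, 10 other calcium genes and 8 of the 27, and the slide as a block 6 member probes. Of 18 score correlations 2 held with slide means removed, 3 without slide 1 and 3 within Hypox, where *Atp2a2* against slow fiber genes was -0.12. Of 36 pairs 3 held with slide means removed, 3 without slide 1, 4 within Norm and 4 within Hypox. With the bright probe mean removed, chosen after seeing the data, *Cacna1s* was at -0.13 with the fast fiber mean, -0.32 with *Pvalb* and -0.27 with *Fkbp1a*. The causes were not tested.

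Leaving out 1 array at a time gave 1717 to 2269 probes, 41 to 233 after adjustment, 3 to 4 member probes, 0 to 1 after adjustment, 6 to 8 member probes lower, 5 to 9 other calcium genes, 4 to 7 FKBP and fiber genes, 5 to 7 score correlations and 7 to 10 pairs. *Cav3* and *Fkbpl* each lost their call in 12 of 24 such fits. The replicate numbers of both groups were tried as a replicate block although they do not pair the mice: over 12 numbers the correlation of same-numbered arrays was -0.21 to 0.40, and 3 were over 0.1. The block gave 50 probes after adjustment and 4 pairs. The brightness of the arrays limits dim probes such as *Pln*, *Casq2* and *Atp2a2* probe 2.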
